A study of Rattus norvegicus with 6 samples.

Results

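The miR-10 and miR-196 families are microRNAs (miRNAs) whose precursors lie inside the Hox gene clusters. Members were taken by name, as every row of the deposited table whose miRNA is an arm of miR-10a, miR-10b, miR-196a, miR-196b or miR-196c. There were 10 such rows among 764, and 7 of them had a value above 0 in at least 1 library. These were rno-miR-10a-5p, rno-miR-10a-3p, rno-miR-10b-5p, rno-miR-10b-3p, rno-miR-196a-5p, rno-miR-196b-5p and rno-miR-196c-5p, written below without the prefix for rat. The other 3, all at 0, were the 3p arms of the miR-196 rows. The families were selected on measured values too, since they were proposed with their levels, the value of miR-10b in wild type library 1 and the difference between genotypes already known. Those values are therefore given as a description, with no test of their own. A test of arm shares below is computed from the levels and carries the same limit.

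Small RNA was sequenced from tissue labelled testicle of male Sprague Dawley rats. The left testis had been turned by 720° for 2 h and was then released for 3 days before collection, a model of testicular ischemia and reperfusion. There were 3 libraries from wild type rats and 3 from rats lacking HO-1, written HO-1-/-, the heme oxygenase that is induced by stress and degrades heme. Torsion preceded all 6 libraries, and sham or uninjured testes were not analysed here. How the knockout was made, or how old the rats were, was not given in the sources used here. This assay does not read the messenger RNA of HO-1, so it cannot check the knockout. Nothing in the labels states that each library came from a separate rat, so error values describe only the spread between these libraries.

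Levels are reads per 1000000 reads assigned to miRNAs (RPM), and the libraries held 8300536 to 10042673 such reads. A single read was worth 0.0996 to 0.12 RPM. The floor that a count of 0 allows, 3 reads, was 0.299 to 0.361 RPM, and floors and intervals cover counting error only, since PCR reads without molecular identifiers are not independent molecules. The markers went against the tissue on the label. miR-122-5p, which is known from hepatocytes, held 32.7% to 46.4% of the reads, and 15 of 33 rows of germ cells and Sertoli cells were at 0 in every library. In a bulk sample, fewer cells of a type and less RNA per cell cannot be told apart.

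Hox genes encode transcription factors that set position along the body axis, and adult cells keep part of the Hox pattern of the place where they arose. The miRNAs embedded in the Hox clusters follow a similar logic. miR-196 is known to target the message of Hoxb8, and miR-10 is known to target messages of other Hox genes, so these miRNAs feed back on the clusters that hold them. In the RefSeq gene table of assembly GRCr8, Mir10a lies between Hoxb5 and Hoxb4, and Mir10b lies within the span of Hoxd4. Mir196a lies between Hoxc10 and Hoxc9, Mir196b between Hoxa9 and Hoxa10, and Mir196c between Hoxb13 and Hoxb9. Each of the Hoxa, Hoxb, Hoxc and Hoxd clusters is thus represented. The build named by the submitters is rn6, and their table has no coordinates, so the positions given here are those of RefSeq on GRCr8.

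The mature sequences are shown because rows within each family differ by as little as 1 base. They are RefSeq sequences on GRCr8, which held 9 of the 10 members, and capitals mark the seed, bases 2 to 8, which pairs with target messages. The 5p arm of miR-10a is at chr10:81779730-81779752 on the plus strand and that of miR-10b at chr3:80035886-80035907 on the plus strand. The 5p arm of miR-196a is at chr7:135988900-135988921 (plus), that of miR-196b at chr4:82661149-82661170 (minus), and that of miR-196c at chr10:81727561-81727582 (plus).
miR-10a-5p: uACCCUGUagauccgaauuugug
miR-10b-5p: cCCUGUAGaaccgaauuugugu
miR-196a-5p: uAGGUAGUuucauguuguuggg
miR-196b-5p: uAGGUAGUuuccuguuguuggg
miR-196c-5p: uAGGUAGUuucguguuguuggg

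The 3 members of the miR-196 family share the seed AGGUAGU, and no other of the 693 RefSeq rat mature miRNAs searched has it. miR-196b-5p differs from miR-196a-5p by A12C and miR-196c-5p differs from miR-196a-5p by A12G, with positions counted from 1 at the 5′ end. A single base, outside the seed, therefore decides which miR-196 row a read belongs to. In the miR-10 family the annotated 5p arms start at different places. miR-10b-5p begins at base 3 of miR-10a-5p, and over the 21 bases they share they differ by U12A, counted along miR-10a-5p. The seeds read from these annotated starts differ, ACCCUGU for miR-10a-5p and CCUGUAG for miR-10b-5p. The 2 bases before the annotated miR-10b-5p in its hairpin are UA, the same that open miR-10a-5p, and a start at them would give the seed ACCCUGU as well.
miR-10b-5p with these bases: uACCCUGUagaaccgaauuugugu
The table holds 1 sum of reads per row, so where the reads of miR-10b-5p began was not measured here. How many mismatches were allowed, or where a read that fits both rows was counted, was not given in the sources used here.

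Nearly all reads of these families came from miR-10a in the Hoxb cluster. Both arms of miR-10a held 94.6% to 98.6% of the members' reads in every library, both arms of miR-10b in Hoxd 1.41% to 5.40%, and the miR-196 rows together 0.0178% to 0.0958%. The members summed to 6186 ± 643 RPM in the wild type, against 5269 ± 684 RPM in the knockout (SD, n = 3), which is 0.466% to 0.683% of a library. miR-10a and miR-196c lie in the same cluster, and were the highest and the lowest of the members with any read. RPM is not divided by length, and these arms are 21 to 23 bases long.

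miR-10a-5p, the guide strand of its hairpin, had 5791, 5420 and 6672 RPM in wild type libraries 1 to 3, against 4536, 5025 and 5860 RPM in knockout libraries 1 to 3. It ranked 21 of 764 rows by mean RPM, and the groups overlapped. miR-10b-5p, which differs from it by U12A, had 331.9, 77.7 and 110.0 RPM in the wild type, against 84.1, 72.0 and 104.3 RPM in the knockout. Wild type library 1 stood far above the other 5, and those 5 overlapped between genotypes. miR-10a-3p, the other strand of the miR-10a hairpin, had 54.2, 46.9 and 47.9 RPM in the wild type, against 32.4, 40.3 and 39.6 RPM in the knockout. Every knockout library was below every wild type library.

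The miR-196 arms and miR-10b-3p were rare. miR-196b-5p, from the Hoxa cluster, had 0.80, 0.66 and 1.16 RPM in the wild type, or 8, 6 and 11 reads, and 4.10, 2.96 and 3.67 RPM in the knockout, or 34, 29 and 33 reads. The 3 knockout libraries were all above the 3 wild type libraries. miR-10b-3p had 1.69, 0.66 and 0.53 RPM in the wild type, or 17, 6 and 5 reads, and 0.12, 0.31 and 0.22 RPM in the knockout, or 1, 3 and 2 reads. All knockout values of miR-10b-3p lay below the wild type values, and each was at or under 3 reads, the floor. miR-196a-5p, from the Hoxc cluster, had 8, 3 and 6 reads in the wild type and 2, 3 and 5 reads in the knockout, and its groups overlapped.

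miR-196c-5p had 2 reads in wild type library 3, 1 read in knockout library 1 and 0 in the other 4 libraries. The 3p arms of miR-196a, miR-196b and miR-196c had 0 reads in all 6 libraries, which allows up to 0.361 RPM each at the least deep library. miR-615, the remaining miRNA of a Hox cluster in the table, lies within the spans of Hoxc6 and Hoxc5 and had 1 read in knockout library 1 and 0 elsewhere.

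**Figure D1:**
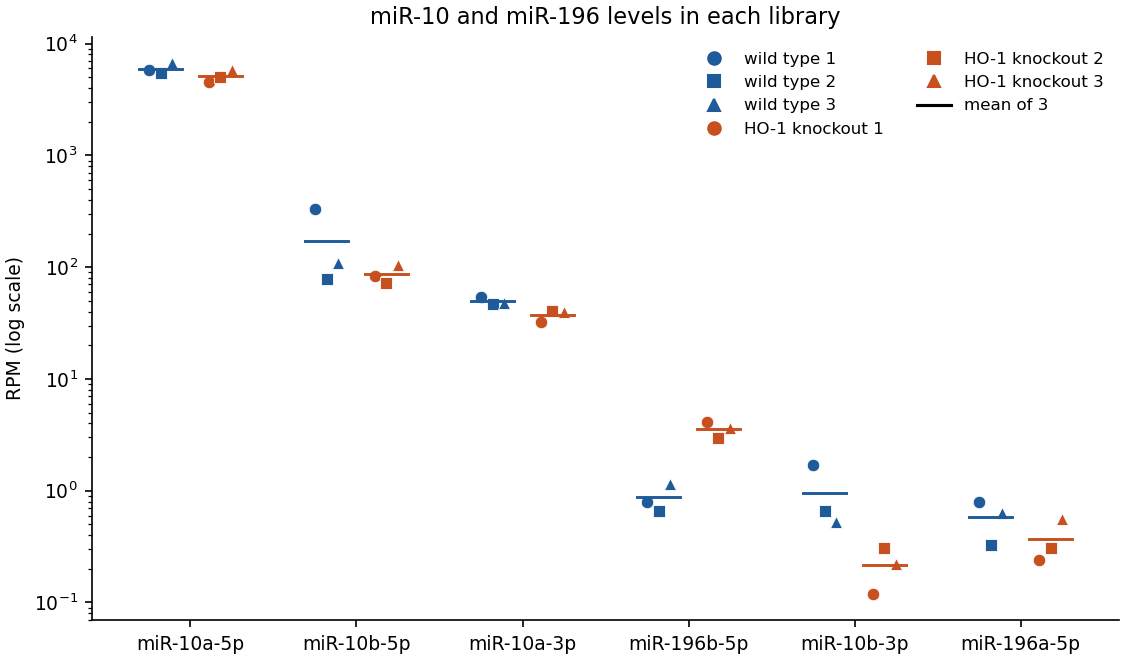
Level of 6 members in each library, in RPM on a log scale, with a symbol for each of the 3 wild type and 3 HO-1 knockout libraries and a line at each group's mean. miR-10a-5p lies between 4536 and 6672 RPM, miR-10b-5p reaches 331.9 RPM only in wild type library 1, and miR-196b-5p is the member whose knockout libraries, at 2.96 to 4.10 RPM, all lie above the wild type.

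In order of mean RPM over the 6 libraries, the members ran miR-10a-5p (5551), miR-10b-5p (130.0), miR-10a-3p (43.5), miR-196b-5p (2.23), miR-10b-3p (0.588), miR-196a-5p (0.478) and miR-196c-5p (0.055). The first 3 steps of that order held in 6 of 6 libraries with ranges that did not overlap. miR-196b-5p and miR-10b-3p overlapped over all libraries and within the wild type, and separated within the knockout. miR-10b-3p and miR-196a-5p overlapped in both genotypes and did not differ beyond their spread. The step from miR-196a-5p down to miR-196c-5p rests on at most 8 reads in a library.

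As a share of reads, the passenger strand was a larger part of the miR-10a hairpin than of the miR-10b hairpin, a direction that turned when 1 RPM was added to each arm. The rule for members did not name this balance. It is computed from levels that were already known, so the test below is not independent of the choice of members. Most precursors load 1 strand into the Argonaute protein and lose the other, and here the 5p strand prevailed in both. The 3p arm made up 0.927%, 0.857% and 0.713% of the miR-10a reads in wild type libraries 1 to 3 and 0.709%, 0.795% and 0.671% in knockout libraries 1 to 3. For miR-10b it made up 0.507%, 0.843% and 0.480% in the wild type and 0.143%, 0.429% and 0.210% in the knockout. The share was higher for miR-10a in 6 of 6 libraries, by 0.344 ± 0.195 percentage points (SD, n = 6; exact two-sided sign-flip permutation p = 0.031, the smallest possible). Any 6 differences of equal sign give this p, and it takes the libraries as independent, which the labels do not state. It is therefore a description, and no support for a difference between the hairpins. In wild type library 2 the gap was 0.0149 points. The 95% Wilson intervals overlapped in 5 of 6 libraries, since miR-10b-3p had at most 17 reads. Taken as a log2 ratio of the arms after adding 1 RPM, more than miR-10b-3p held in 5 of 6 libraries, the difference turned to -0.77 (exact permutation p = 0.0625). Without the added RPM, a higher share in a library is also a higher ratio there, so the turn came from the added RPM. The 3p arms themselves differ by A3G, U9A and A10U over the 20 bases they share, with positions counted along miR-10a-3p.
miR-10a-3p: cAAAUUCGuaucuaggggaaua
miR-10b-3p: aCAGAUUCgauucuaggggaa

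**Figure D2:**
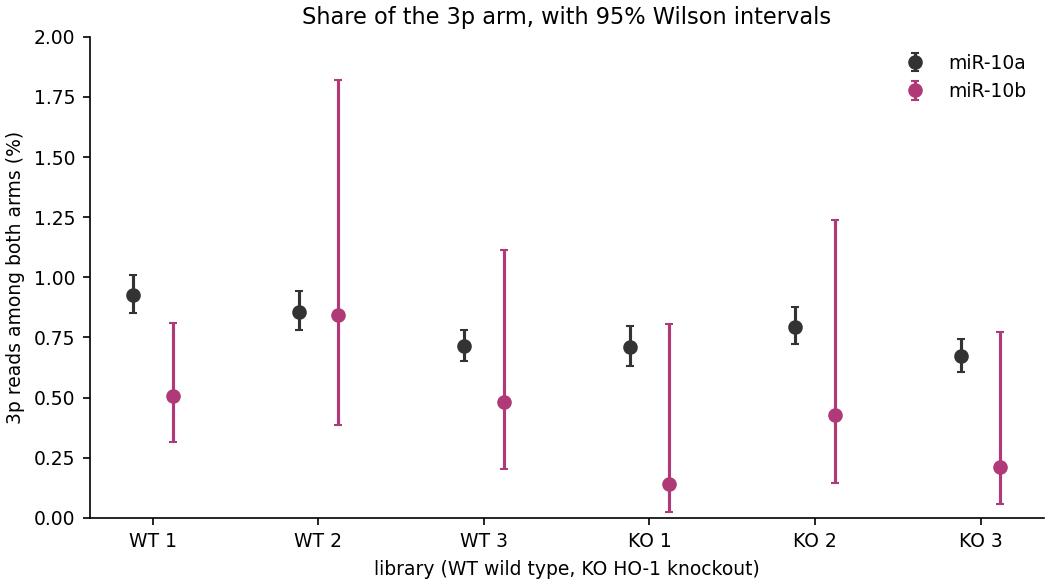
Share of 3p reads among both arms of miR-10a (dark) and miR-10b (magenta) in each library, in percent, with 95% Wilson intervals of the read counts. miR-10a lies between 0.671% and 0.927% with narrow intervals, and miR-10b lies below it in 6 of 6 libraries with intervals that reach 1.82%.

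miR-10b stood apart in wild type library 1, and miR-10a did not. miR-10b-5p was 3.54 times the mean of wild type libraries 2 and 3 there, and miR-10b-3p was 2.84 times that mean, so both arms of the hairpin were high together. miR-10a-5p was 0.958 times and miR-10a-3p 1.14 times the same mean. miR-10b-5p equalled 5.73% of miR-10a-5p in wild type library 1 and between 1.43% and 1.85% in the other 5 libraries. Among those 5 libraries the ratio of the Hoxd to the Hoxb miRNA did not separate the genotypes.

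Other rows were high in the same library. Of 218 rows with a mean of at least 10 RPM, 94 were highest in wild type library 1, and 16 to 48 in each other library. That library also had the lowest share of miR-122-5p, 32.7% of reads against 36.3% to 46.4% in the others. A lower share of 1 row raises the RPM of the rest, and the count was not repeated with another scaling. 5 rows exceeded 2 times the highest of the other 5 libraries there, and they are named here after their values were seen. miR-127-3p, of the imprinted Dlk1-Dio3 region, was 11.1 times the next library, and miR-10b-5p came second at 3.02 times. miR-218a-5p followed at 2.48 times, then miR-214-3p at 2.14 times and miR-199a-3p at 2.13 times, both known from fibroblasts and other mesenchymal cells. The 8 rows of the smooth muscle and fibroblast list summed to 19225 RPM in wild type library 1, 14932 and 12086 RPM in wild type libraries 2 and 3, and 6895 to 9094 RPM in the knockout. None of the 8 was at 0 in all libraries. The list did not peak there as a whole. miR-199a-5p was 1.85 times the next library, but miR-143-3p, most of the sum at 13412 RPM, was only 1.12 times. miR-143-5p, miR-145-5p and miR-145-3p were not highest there, at 0.961, 0.992 and 0.964 times. The part of these rows in the miR-10b value was not tested.

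The profile of miR-10b-5p was most like those of other rows with their peak in wild type library 1. Its own peak there dominates the measure of likeness, so the shared peak largely follows from how the rows were picked. Likeness was the root-mean-square difference between log2(RPM + 1) values, each row centred on its own mean over the 6 libraries, among 217 other rows of at least 10 RPM. The nearest row was miR-218a-5p, at a difference of 0.32, followed by miR-199a-5p at 0.35 and miR-1b at 0.37, where the median row was at 0.69. miR-218a-5p had 342.8, 95.8 and 126.8 RPM in the wild type, against 138.4, 111.1 and 90.5 RPM in the knockout. Like miR-10b-5p, it was high in 1 library and overlapped between genotypes in the rest.

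**Figure D3:**
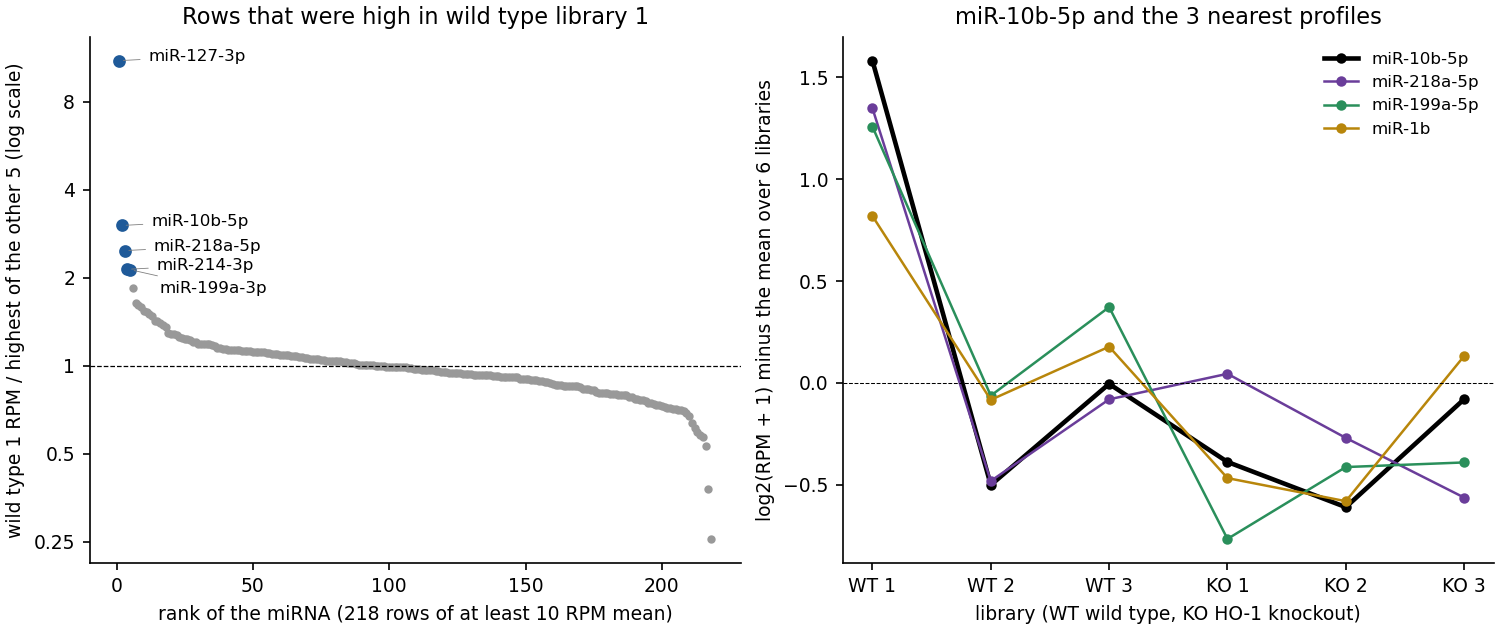
Left, the RPM of wild type library 1 divided by the highest RPM of the other 5 libraries, on a log scale, for 218 rows ranked by it, with the 5 rows above 2 named. Right, log2(RPM + 1) of miR-10b-5p and its 3 nearest rows, each minus its mean over the 6 libraries. All 4 peak in wild type library 1, which largely follows from picking rows by likeness to miR-10b-5p.

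Between genotypes, miR-196b-5p was the only member higher in the knockout, and it is the member of the Hoxa cluster. Its mean was 0.873 ± 0.258 RPM in the wild type, against 3.58 ± 0.58 RPM in the knockout (SD, n = 3). That is a ratio of 4.10, and on the pooled reads, 25 against 96, the ratio was 4.06 with a 95% counting interval of 2.59 to 6.58. Counting intervals on pooled reads, here and below, leave out the spread between libraries and are no test of genotype. Over the whole table, libraries of the same genotype differed far beyond counting error, with a chi-square of 104 to 270 per degree of freedom. That is a value for the table as a whole, to which abundant rows can add most, and not the spread of miR-196b-5p. miR-196a-5p, with the same seed, went from 0.587 ± 0.238 to 0.37 ± 0.168 RPM, on 17 against 10 reads, a ratio of wild type to knockout of 1.61 with a counting interval of 0.695 to 3.93. miR-196b-5p equalled 1.00, 2.00 and 1.84 times miR-196a-5p in wild type libraries 1 to 3, and 17.1, 9.55 and 6.55 times in knockout libraries 1 to 3. The lowest knockout ratio was thus above the highest wild type ratio, with 2 to 8 reads of miR-196a-5p behind each.

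On the log2(RPM + 1) scale used for the whole table, the difference of miR-196b-5p was 1.29 (SE 0.22), a scale that understates changes of rare miRNAs. The authors' deposited table gives it a log2 fold change of 2.03. With other settings it ranged from 0.54, with a pseudocount of 5, to 2.27, in DESeq2 on whole reads recovered from the RPM, and was at least 1.21 with any 1 library left out. In limma with Benjamini-Hochberg adjustment, 6.32% of the 570 rows passed the adjusted threshold of 0.05. The share was 0.702% in the knockout-higher direction, 4 rows, and 5.61% in the knockout-lower direction, 32 rows. The higher rows depended on the scaling, at 20 with TMM scaling, 20 with RLE scaling, 17 without miR-122-5p in the totals and 25 without the 10 most abundant miRNAs in them. edgeR and DESeq2 on the recovered reads called 10.7% and 20.0% of rows with an adjusted p. Since this contrast was known when the families were proposed, no member is tested against these shares.

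The rows nearest to miR-196b-5p in profile were miR-375-3p, known from pancreatic islets and other endocrine cells, at a root-mean-square difference of 0.22, miR-29b-3p at 0.29 and miR-674-3p at 0.33. The median of the 218 rows compared was 0.82. miR-375-3p had 46.8, 33.7 and 52.5 RPM in the wild type, against 99.3, 124.0 and 109.2 RPM in the knockout. All 3 nearest rows were separated between genotypes in the same direction as miR-196b-5p, at much higher levels. They were picked for likeness over the same 6 libraries, so the shared direction largely follows from that choice and is no separate result. Their means differed by less, at 2.50-fold, 1.90-fold and 1.75-fold in RPM against 4.10-fold for miR-196b-5p, and the pseudocount shrinks the change of the rare row most. With a pseudocount of 0.1, an alternative chosen after the data were seen, the same 3 rows were nearest, at 0.39, 0.59 and 0.65. With a pseudocount of 5, chosen likewise, miR-375-3p was the 87th nearest row, so the likeness depended on the pseudocount.

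The remaining 6 members had lower means in the knockout, as did much of the table. The median log2 difference of the 218 rows of at least 10 RPM was -0.29, while miR-122-5p held 32.7% to 36.6% of reads in the wild type libraries and 40.2% to 46.4% in the knockout libraries. With TMM scaling, which sets libraries against each other on the bulk of rows, that median was -0.07. miR-10a-5p had a mean of 5961 ± 643 RPM in the wild type, against 5140 ± 669 RPM in the knockout, a log2 difference of -0.22 (SE 0.12). It became 0.0079 with TMM scaling, far inside that SE, so no difference beyond the spread was left on that scale. The 3 other scalings placed it between -0.02 and 0.040.

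miR-10a-3p went from 49.7 ± 3.9 to 37.4 ± 4.4 RPM, a log2 difference of -0.40 (SE 0.16), and -0.18 with TMM scaling. miR-10b-3p went from 0.96 ± 0.636 to 0.217 ± 0.095 RPM, a log2 difference of -0.64 (SE 0.22), and -0.56 with TMM scaling. On 28 against 6 pooled reads it was 4.41-fold lower, with a 95% counting interval of 1.79 to 13.0. Without wild type library 1 the ratio was 2.67, on 11 against 6 reads, with an interval of 0.905 to 8.79. In 2 of 7 members, miR-10a-3p and miR-10b-3p, every knockout value lay below every wild type value, where 21.6% of the 570 rows did so. For miR-196b-5p the values were separated upward, where 4.39% of rows were.

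miR-10b-5p had a mean of 173 ± 138 RPM in the wild type, against 86.8 ± 16.3 RPM in the knockout, with 331.9 RPM in wild type library 1 behind the SD. Its log2 difference was -0.72 (SE 0.48) with all libraries and -0.11 without wild type library 1. The mean of wild type libraries 2 and 3 was 93.8 RPM, 1.08 times the knockout mean. The lower knockout mean thus rested on that library.

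**Figure D4:**
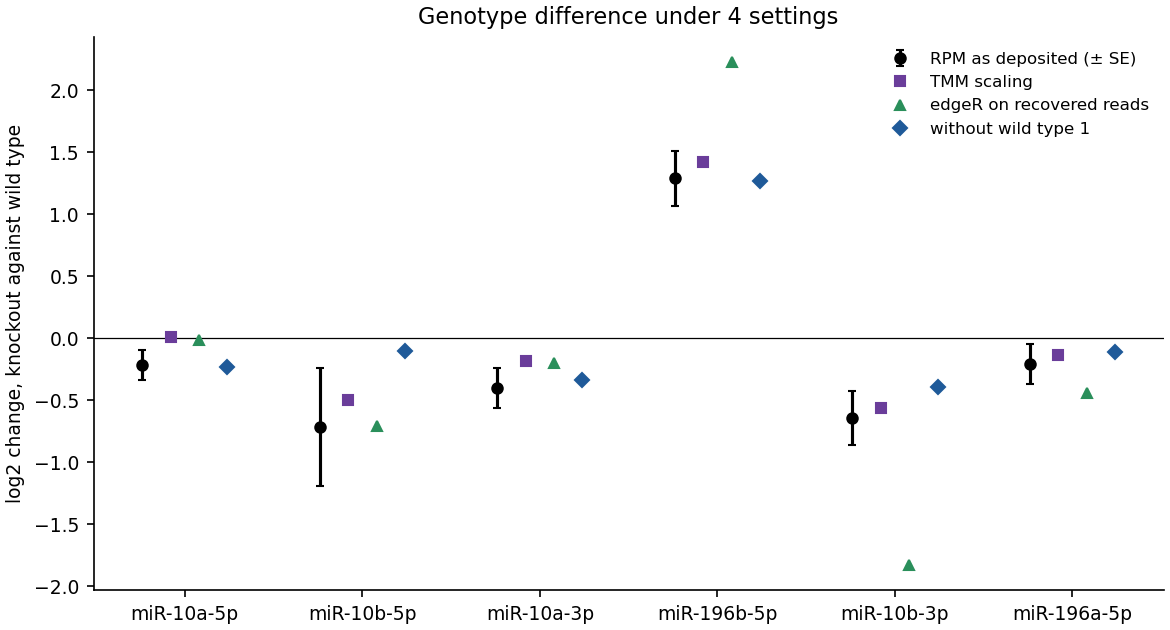
Log2 difference of 6 members, knockout against wild type, on log2(RPM + 1) with its standard error (black), with TMM scaling, in edgeR on recovered reads, and without wild type library 1. miR-196b-5p lies above 1.2 in all 4 settings, miR-10a-5p moves to 0.0079 with TMM scaling, and miR-10b-5p moves from -0.72 to -0.11 without wild type library 1.

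miR-99a, miR-99b and miR-100 are relatives of miR-10 in sequence, with the seed ACCCGUA in place of ACCCUGU in those found in RefSeq.
miR-100-5p: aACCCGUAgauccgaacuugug
miR-99b-5p: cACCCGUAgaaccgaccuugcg
Of their 3 5p arms, 1 passed the adjusted threshold, where 6.32% of all rows did. Many of those rows were rarer than these arms. In limma on the 218 rows of at least 10 RPM alone, 50 passed. miR-100-5p and miR-99a-5p were among them, with adjusted p of 0.0066 and 0.016 in limma, and miR-99b-5p was not. miR-100-5p fell from 798 ± 52 to 489 ± 28 RPM, a log2 difference of -0.70 (SE 0.10) with an adjusted p of 0.015 in limma, and of -0.48 with TMM scaling. Over the alternatives this p ran from 9.0e-04 to 0.071, and the call was lost only without knockout library 3. miR-99a-5p, the most abundant of them, had 20725.5 ± 3058 and 14826 ± 1124 RPM and a log2 difference of -0.48, with no call in the fit of all rows. With TMM scaling it was -0.25. miR-99b-5p had 476 ± 75 and 457 ± 36 RPM and a log2 difference of -0.05 that turned to 0.18 with TMM scaling. Whether these differences depart from that of miR-10a-5p was not tested. miR-10a-5p itself was nearest in profile to miR-146a-5p, at a root-mean-square difference of 0.04, then to miR-30d-5p at 0.06 and miR-342-3p at 0.07, where the median row was at 0.28. miR-10a-3p was nearest to miR-30d-3p at 0.06, miR-195-5p at 0.06 and miR-103-3p at 0.07, where the median row was at 0.23.

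Marker rows of other cell types were summed in RPM beside these values, a scale on which the median row of at least 10 RPM differed by -0.29. The 9 epithelial rows summed to 1015 to 1721 RPM in the wild type, against 457 to 529 RPM in the knockout, with none at 0 in all libraries. Their log2 ratio of knockout to wild type mean was -1.55, and -1.33 with TMM scaling. For the smooth muscle and fibroblast rows it was -0.99 and -0.75, and in both lists every knockout sum lay below every wild type sum on either scale. The 2 endothelial rows, both arms of miR-126a, summed to 25222 to 26982 RPM and 19147 to 21287 RPM. The 4 rows of miR-192 and miR-194, of kidney, gut and liver, summed to 65508 to 70972 RPM and 50869 to 55452 RPM, and the 5 red blood cell rows to 468 to 580 RPM and 377 to 459 RPM. The log2 ratios of these 3 lists, -0.40, -0.33 and -0.27, stood close to that median, and with TMM scaling they were -0.18, -0.11 and -0.06 and the genotypes overlapped. The 8 leukocyte rows overlapped, at 795 to 921 RPM and 848 to 957 RPM, and were separated upward with TMM scaling, at a log2 ratio of 0.29. The 5 striated muscle rows with any read, of 8, overlapped at 5.04 to 10.1 RPM and 4.70 to 8.88 RPM. That list holds arms of miR-1, miR-133a, miR-133b and miR-206. It leaves out miR-1b, which had 38.7, 20.3 and 24.5 RPM in the wild type, against 15.3, 14.1 and 23.7 RPM in the knockout. The 18 germ cell and Sertoli cell rows with any read summed to 40.1 to 56.3 RPM and 29.0 to 33.8 RPM, a log2 ratio of -0.55, and -0.32 with TMM scaling. The part of these cell types in the miR-10 and miR-196 values was not tested.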

How the data were processed

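Per the labels' protocols, each small RNA library took 1 μg of total RNA, used a ligation kit and was read as single ends of 50 bp. The authors deposited RPM for 764 rat miRNAs, rounded to 2 decimals, with their mean RPM, log2 fold change and p-value for the genotypes, per the file headers. The test behind the deposited p-value was not given in the sources used here, and no p-value of the authors is printed. The submitters' processing notes name FastQC, BWA, edgeR and build rn6, without version or role. Whole reads were recovered from the RPM steps, with 97.8% to 98.9% of values above 0 within 0.0051 RPM of a whole read. In wild type library 1 the step lies so close to 0.1 that its total rests on its higher values.

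limma 3.58.1 with an intensity trend was fitted in R 4.3.3 to log2(RPM + 1) of the 570 rows with any read, on genotype alone. edgeR 4.0.16 (quasi-likelihood) and DESeq2 1.42.0 on recovered reads, other scalings, pseudocounts, filters, a replicate block and the omission of each library were alternatives. The fits were tested on simulated data. The arm shares were compared with an exact permutation test in SciPy 1.17.1. Named miRNAs are the members, miR-615, the 5p arms of miR-99 and miR-100, miR-122-5p and the 3 nearest profiles of each member of at least 10 RPM and of miR-196b-5p. miR-127-3p, miR-214-3p, miR-199a-3p and the single arms of miR-143 and miR-145 were added after their values were seen. The ranking of rows by wild type library 1, the counting intervals on pooled reads, the alternatives for the miR-99 and miR-100 arms, the profile distances with other pseudocounts and the marker sums with TMM scaling were also added after the data were seen. The members, lists and rules were chosen with earlier results of these data known.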

Additional observations from a re-analysis of the deposited data

How the results depend on the processing

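The number of miRNAs called between genotypes, 36, became 61 in edgeR and 72 in DESeq2 on recovered reads, and 22 with the replicate number as a block. Leaving out 1 library at a time gave 5 to 26 calls, with 13, 21 and 5 without knockout libraries 1, 2 and 3 and 17 without wild type library 2. With TMM scaling the split of higher to lower calls went from 4 and 32 to 20 and 29, with RLE scaling to 20 and 27, without miR-122-5p in the totals to 17 and 28, and without the 10 most abundant miRNAs in them to 25 and 27. It was 26 and 35 in edgeR and 35 and 37 in DESeq2. The deviations of libraries of equal number correlated at 0.18 and 0.20 over 218 rows for numbers 2 and 3, the highest of all wild type and knockout pairs. For number 1 the correlation was 0.03, and wild type library 1 was closer to knockout library 2, at 0.06. Since not every equal-numbered pair exceeded 0.1, the numbers were not taken as pairs.

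miR-10a-5p changed sign from -0.22 to 0.0079 with TMM scaling, 0.024 with RLE scaling, 0.040 without the 10 most abundant miRNAs in the totals and 0.0051 in DESeq2. It stayed negative at -0.019 without miR-122-5p in the totals and -0.014 in edgeR. miR-196c-5p, on 3 reads in all, ranged from -0.092 to 0.055 with 1 library left out and reversed from -0.04 without wild type library 3. miR-99b-5p reversed from -0.05 to 0.18 with TMM scaling, 0.19 with RLE scaling, 0.15 without miR-122-5p and 0.21 without the 10 most abundant miRNAs in the totals, 0.16 in edgeR and 0.19 in DESeq2, and ranged from -0.19 to 0.030 with 1 library left out. miR-99a-5p lay between -0.28 and -0.22 under the other 4 scalings and uncalled, and miR-100-5p between -0.51 and -0.45 and called. miR-99a-5p passed the threshold with a pseudocount of 0.1, under both filters and without wild type library 2. miR-196b-5p kept its direction in 17 of 17 alternatives, and the filter at a mean of 10 RPM gave no value for it. The other 4 members kept their direction in every alternative that gave them a value. The profile distance of miR-196b-5p to miR-375-3p went from 0.22 to 0.39 and 0.40 with pseudocounts of 0.1 and 5. The 3p share of miR-10a exceeded that of miR-10b by 0.299 to 0.409 points without 1 library, where the smallest exact p that 5 pairs allow is 0.0625. As a log2 ratio after adding 1 RPM it was -0.77. The ratio of miR-196b-5p to miR-196a-5p in the knockout was 11.1, and 3.38 with 1 RPM added to both. Depth limits the miR-196 rows and miR-10b-3p, which rest on 1 to 34 reads in a library where any was found.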
